A study of Mus musculus with 4 samples.

Results

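Fibroblasts of the choroid and sclera at 1 month of age were taken from droplet single-cell RNA sequencing of the mouse retinal pigment epithelium (RPE) and choroid. A cell barcode was counted as a fibroblast when it had at least 300 genes and at most 30% mitochondrial unique molecules (UMIs) and carried at least 4 of 9 fibroblast markers. The markers were Col1a1, Col1a2, Col3a1, Dcn, Lum, Pdgfra, Dpt, Mfap5 and Fbln1, and together they had to make up at least 0.3% of the barcode's UMIs. Barcodes were left out when they carried 3 or more of 5 endothelial or of 5 mural cell markers or 2 or more of 4 keratins, or when 5 RPE genes reached 0.5% of UMIs. The cells were thus chosen by measured values of these genes. The rule gave 759 fibroblasts among 3368 retained 1-month barcodes, of 6555 retained barcodes in the 4 libraries of the series.

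The wild-type library (WT, 1 month) held 311 fibroblasts of 1549 retained barcodes, a share of 20.1% (exact 95% binomial interval 18.1 to 22.2). The knockout library (Vldlr-/-, 1 month) held 448 of 1819, a share of 24.6% (22.7 to 26.7). The same rule gave 115 of 2047 barcodes (5.62%, 4.66 to 6.71) in the 2-month WT library and 147 of 1140 (12.9%, 11 to 15.0) in the 2-month Vldlr-/- library. The intervals of the knockout and wild-type shares did not overlap at either age. All intervals cover counting error only.

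The study compared WT mice with Vldlr-/- mice, which lack the very low density lipoprotein receptor, at 1 and 2 months, with 1 library per genotype and age. Anterior segments and neural retina were taken off, the RPE and choroid were scraped from the sclera, and the tissue was digested with collagenase A, Dispase II and trypsin before dead cells were removed. The labels used here do not give the deleted part of the Vldlr allele, the strain, the sex of the mice or how many animals went into each library. With 1 library per group no difference between genotypes could be tested, so values are given side by side, "at least 2-fold" names a size and not a significance, and the 2-month pair is a separate pair of libraries.

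Fibroblasts build the collagen and proteoglycan matrix of the choroidal stroma and of the sclera, the tough outer coat of the eye. Several kinds are known in most organs: fibroblasts of the adventitia around larger vessels, often marked by Pi16, Dpt and Cd34, fibroblasts of the tissue between vessels, and tenocyte-like cells of dense collagen sheets. Contractile fibroblasts carry smooth muscle actin (Acta2) and its partners, and immediate early genes such as Fos and Egr1 switch on within minutes of growth factor signals or of handling and warm digestion.

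Fibroblasts held 2235733 UMIs in the WT library and 2908027 in the knockout library, with medians of 6902 and 5737.5 UMIs and of 2735 and 2431.5 genes per barcode. A level is given below as CPM, the gene's UMIs per 1000000 fibroblast UMIs of a library. A ratio is knockout over wild-type CPM on the log2 scale after adding 0.5 counts, computed for genes with at least 30 UMIs over both libraries, and its interval is an exact 95% interval for counting error. Vldlr gave 15 UMIs (6.71 CPM) in WT and 13 (4.47 CPM) in knockout fibroblasts, too few for a ratio, while RPE barcodes held 131 and 4.77 CPM. Rod barcodes held Vldlr in both libraries, in 44.3% of WT (281 CPM) and 39.2% of knockout barcodes (173 CPM), and all non-fibroblast barcodes together held 30.1 and 51.6 CPM. Vldlr was thus lower in knockout RPE barcodes, was present in knockout rods, and did not check the label in fibroblasts; whether the counted reads lie in the deleted part is not known.

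The 2 libraries differed in the sex of their cells and in RNA from other cell types. Fibroblasts with Xist and no Y-linked UMI numbered 124 of 311 (39.9%) in WT and 307 of 448 (68.5%) in knockout, and those with Y-linked UMIs and no Xist numbered 116 (37.3%) and 64 (14.3%). Each library thus held cells of both sexes, and knockout fibroblasts were more often Xist-positive. At least 2 of 11 rod photoreceptor markers were carried by 95 WT (30.5%) and 347 knockout fibroblasts (77.5%), and all 11 were higher in the knockout, with a summed level of 539 and 744 CPM. Red blood cell markers summed to 313 and 530 CPM, RPE markers to 242 and 185 CPM, B cell markers to 201 and 267 CPM, macrophage and myeloid markers to 169 and 171 CPM (Mrc1 at 0 in both). Of 10 epithelial markers 7 were at 0 in WT and 8 in knockout. The free RNA in a fibroblast barcode was estimated from rod and B cell markers at 8.24% of UMIs in WT and 4.96% in knockout; its part in the ratios was not tested. No barcode was removed as a doublet. In the 2-month pair, macrophage and myeloid markers summed to 81.3 CPM in WT and 752 CPM in knockout fibroblasts. Melanocyte markers there summed to 98.9 and 448 CPM, rod markers to 46.8 and 217 CPM, and RPE markers to 345 and 282 CPM.

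The markers of the rule chose the cells, so their levels are a description and not a check of the label. Col1a1, a chain of type I collagen, held 9310 UMIs (4164 CPM) in WT and 13139 (4518 CPM) in knockout fibroblasts. At least 1 Col1a1 UMI was found in 97.1% of WT and 96.2% of knockout fibroblasts. It was found in 8.15% and 8.10% of lymphoid barcodes, which the rule had left out. The most uneven marker of the rule was Dpt (dermatopontin), with 17 UMIs in 3 WT fibroblasts and 335 in 29 knockout fibroblasts. All 9 markers were found in 3 WT and 26 knockout fibroblasts. Barcodes just outside the rule, with exactly 3 markers, numbered 29 in WT and 31 in knockout and had medians of 2195 and 1807 UMIs and marker shares of 0.425% and 0.458%. Fibroblasts just inside it, with exactly 4 markers, numbered 18 and 26 and had medians of 1331.5 and 1165 UMIs and marker shares of 0.794% and 0.946%.

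Genes outside the rule that stood highest in fibroblasts against all other barcodes, again a description, came largely from small groups of cells. Myoc, the myocilin gene of the trabecular meshwork and sclera, held 943 UMIs in 42 WT fibroblasts and 1714 in 63 knockout fibroblasts. Kera (keratocan, a corneal and scleral proteoglycan) was found in 3 and 8 fibroblasts, and Angptl7, a secreted protein of the trabecular meshwork and cornea, in 13 and 22. Mmp3 (stromelysin, a matrix protease) was found in 12 and 21 fibroblasts, and 1 WT cell held 327 of its 387 WT UMIs. Igfbp5, an insulin-like growth factor binding protein, and Mgp (matrix Gla protein, an inhibitor of calcification) were among the genes with most UMIs in both libraries. Igfbp5 stood at 11485 and 12764 CPM and Mgp at 6810 and 5946 CPM.

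Clusters of fibroblasts, numbered 0 to 6, were found by clustering without the genes that were at least 2-fold apart between the genotypes, without immediate early, heat shock and sex-linked genes, and without the marker genes of other cell types. Cluster 4 was adventitial-like, led by Ly6c1, Emilin2, Dpt, Clec3b, Cadm3, Ccn3, Adam33 and C3. It held 9 of 311 WT fibroblasts (2.89%, 1.33 to 5.42) and 35 of 448 knockout fibroblasts (7.81%, 5.50 to 10.7). The knockout share was higher and the counting intervals did not overlap. The 44 cells came together again at a finer resolution and when all variable genes were used for clustering.

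Cluster 5 was tendon and sclera-like. It was led by Ooep, Angptl7, Cilp2, Mmp3, Gpha2, Fmod, Matn4 and Tnmd, where Fmod and Tnmd encode fibromodulin and tenomodulin of dense collagen tissue. It held 18 WT fibroblasts (5.79%, 3.47 to 8.99) and 17 knockout fibroblasts (3.79%, 2.23 to 6.01), and these intervals overlapped. Cluster 2 was led by Foxd1, Crabp2, Foxc2 and Slc47a1 but also by the endothelial gene Cdh5 and the mural gene Rgs5, so it was left unnamed; it held 85 and 95 fibroblasts. Cluster 1, led by Coch, Slc17a8 and Cdh6, held 82 and 106.

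Cluster 0 held 66 WT fibroblasts (21.2%, 16.8 to 26.2) and 142 knockout fibroblasts (31.7%, 27.4 to 36.2) and was led by genes that included Cnga1, Rp1, Rbp4 and Prph2, rod photoreceptor genes apart from Rbp4. It was left unnamed. Within cluster 0, 10 of 10 measured rod markers were lower in the knockout (median −0.79), whereas 7 of 7 were higher in cluster 1 (1.69) and 5 of 5 in cluster 2 (1.64). The part of rod RNA in the share of cluster 0 was not tested. Cluster 3 held 47 and 46 fibroblasts of few UMIs, with median mitochondrial shares of 15.3% and 11.3%. Cluster 6, of 4 and 7 cells, carried lymphocyte genes such as Ptprc.

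**Figure D1:**
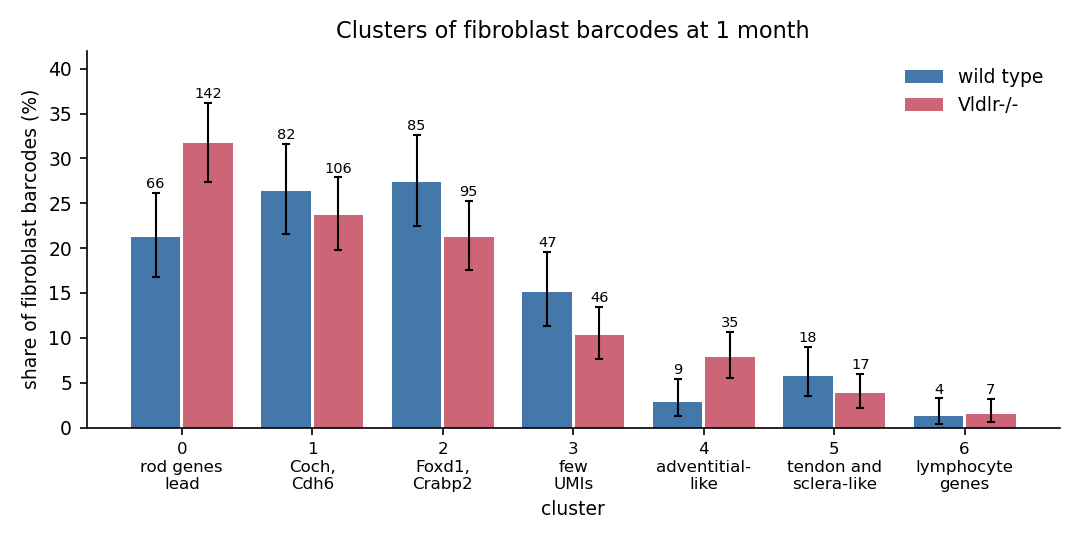
Share of the fibroblasts of each 1-month library in each cluster (percent, bars from 0; lines are exact 95% binomial intervals for counting error), WT beside Vldlr-/-. Cluster 4, adventitial-like, holds 2.89% of WT and 7.81% of knockout fibroblasts, and cluster 0 holds 21.2% and 31.7%.

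Of 10977 genes with a 1-month ratio, 213 (1.94%) were higher in knockout fibroblasts by 2-fold or more, and 166 (1.51%) were lower by that size. The lower count was 85 after thinning each cell to 2000 UMIs and 257 when each cell was weighted alike. The median ratio of all genes was 0.04, and 54.9% of genes lay above 0. At 2 months 284 of 9422 genes (3.01%) were higher by 2-fold or more and 137 (1.45%) lower. In both pairs alike, 39 genes were higher by that size (0.424% of 9194 genes with a ratio at both ages) and 17 lower (0.185%), while 5 (0.0544%) were higher at 1 month and lower at 2 months and 4 (0.0435%) the reverse. Of the 213 higher genes 109 had a 2-month ratio and 81 of these were above 0, with a median of 0.50. Of the 166 lower genes 75 had one and 56 were below 0, with a median of −0.35. Without the 44 cells of cluster 4, 177 of 10757 genes (1.65%) were higher by 2-fold or more and 147 (1.37%) lower. These were not all the same genes. Among the 213 higher genes 171 still had a ratio there and 129 stayed at least 2-fold higher. Among the 166 lower genes 153 still had a ratio and 114 stayed at least 2-fold lower.

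Genes of adventitial fibroblasts were higher in knockout fibroblasts in both pairs. All 10 of the list lay above 0 at 1 month and at 2 months, 6 of them at least 2-fold at each age, with median ratios of 1.27 and 1.25. Of all genes 54.9% and 49.7% lay above 0 at these ages, and 1.94% and 3.01% were at least 2-fold higher. One of the 10, Dpt, is also a marker of the rule. Pi16, a peptidase inhibitor of adventitial cells, held 516 UMIs (231 CPM) in 57 WT fibroblasts and 2406 (827 CPM) in 89 knockout fibroblasts, a ratio of 1.84 (1.70 to 1.98). At 2 months Pi16 held 197 UMIs in WT and 764 in knockout fibroblasts, a ratio of 1.37. The knockout library was the higher of each pair, by more at 1 month.

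Clec3b (tetranectin, a plasminogen-binding protein) held 112 UMIs in 15 WT and 622 in 57 knockout fibroblasts, a ratio of 2.09, and 27 and 376 UMIs at 2 months, a ratio of 3.20. It was found in 4.82% of WT and 12.7% of knockout fibroblasts, against 1.30% and 1.53% of lymphoid barcodes. Ly6c1, a membrane protein shared with endothelial cells, held 57 and 257 UMIs (1.78) and at 2 months 10 and 77 (2.30). Cd55, a complement regulator, was at 30 and 109 UMIs (1.46) and Sema3c, a secreted guidance protein, at 134 and 369 (1.08). The other genes of the list differed less: Cd34 stood at 0.47, Anxa3 at 0.16, Ly6a at 0.11 and Dpp4, with 14 and 19 UMIs, at 0.05. The list was therefore carried by Dpt, Clec3b, Pi16, Ly6c1, Cd55 and Sema3c.

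Most of these UMIs lay in cluster 4, which held 92.9% of Clec3b UMIs. Within cluster 4 the knockout over wild-type ratio was 0.41 for Clec3b (1082 and 1441 CPM) and 0.58 for Pi16 (3403 and 5080 CPM), smaller than over all fibroblasts. Without cluster 4 the median of the list was 0.44, with 4 of 7 measured genes above 0, and with the mix of clusters held equal it was 0.29. In Xist-positive fibroblasts alone the median was 1.83 and in Y-positive fibroblasts alone it was 0.91. No clustering was made at 2 months, where fibroblasts with 5 or more of the 10 genes numbered 13 of 115 in WT (11.3%, 6.16 to 18.6) and 22 of 147 in knockout (15.0%, 9.62 to 21.8). The same count at 1 month gave 18 (5.79%, 3.47 to 8.99) and 48 (10.7%, 8.01 to 14.0). The WT and knockout intervals of these shares overlapped at each age. After thinning each cell to 2000 UMIs the 1-month shares were 1.86% (5 of 269 WT fibroblasts left) and 6.58% (26 of 395 knockout fibroblasts left). At 2 months the thinned shares were 0.935% (1 of 107) and 6.29% (9 of 143), so the WT share rested on 1 cell.

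**Figure D2:**
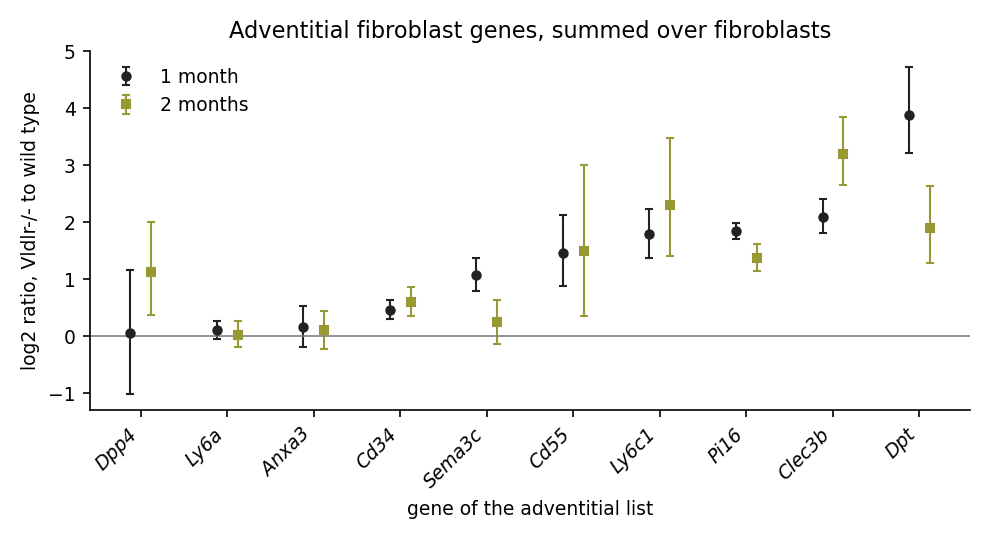
Log2 ratio of knockout over wild-type fibroblasts (y axis) for the 10 adventitial genes (x axis), circles for the 1-month pair and squares for the 2-month pair; lines are exact 95% intervals for counting error. All points lie above 0, from 0.05 (Dpp4) to 3.88 (Dpt) at 1 month.

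Other genes were at least 2-fold higher at both ages. Emilin2, an elastic fibre glycoprotein, held 21 and 86 UMIs (ratio 1.63) and 3 and 67 at 2 months (3.69). Il33, an alarmin cytokine, held 78 and 285 UMIs (1.48) and 38 and 151 at 2 months (1.40). Thy1, a surface marker of many fibroblasts, H19, an imprinted long non-coding RNA, Ace, angiotensin-converting enzyme, and Inmt were in the same set.

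The 12 largest higher genes included several that were spread over many cells. Serpina3n, a secreted serine protease inhibitor of the acute phase, held 28 UMIs (12.5 CPM) in 14 WT and 215 (73.9 CPM) in 95 knockout fibroblasts, a ratio of 2.54 (1.99 to 3.18). At 2 months it held 39 and 202 UMIs (1.78), and without cluster 4 the 1-month ratio was 2.74. Other barcodes held 0.491 and 3.44 CPM of Serpina3n at 1 month and 14.5 and 192 CPM at 2 months. Knockout fibroblasts were higher in each of clusters 0, 1, 2, 4 and 5, with 0 and 31 UMIs in cluster 0, 1 and 31 in cluster 1 and 11 and 48 in cluster 2. In Y-positive fibroblasts alone the Serpina3n ratio was 0.22, and in Xist-positive fibroblasts it was 2.96. The Serpina3n ratio was near 0 in Y-positive cells, and the part of sex in it was not tested.

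Rbp4, the serum retinol-binding protein, held 21 UMIs (9.39 CPM) in 13 WT and 207 (71.2 CPM) in 104 knockout fibroblasts, a ratio of 2.89 (2.27 to 3.64), and 12 and 52 UMIs at 2 months (1.49). Other barcodes held 0.123 and 1.91 CPM of Rbp4. It was widespread in the knockout and higher there in clusters 0, 1 and 2, with ratios of 3.47, 2.41 and 1.89. Cluster 0, where it was highest, was the cluster led by rod genes.

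Some large ratios rested on few cells. Gpha2, a glycoprotein hormone subunit, held 3 UMIs in WT and 98 in 6 knockout fibroblasts, of which 1 cell held 65. Sfrp4, a secreted inhibitor of Wnt signalling, held 27 UMIs in 5 WT and 378 in 26 knockout fibroblasts (3.40), and was higher in the knockout within cluster 4 (6 and 234 UMIs) and cluster 5 (21 and 134). At 2 months Sfrp4 had 0 and 8 UMIs. Col6a6, a chain of collagen VI, held 6 and 60 UMIs (2.84). The parathyroid hormone-like gene Pthlh held 23 and 153 UMIs (2.33) at 1 month and stood at −0.36 at 2 months. Sfrp4 and Pthlh were thus not shown at 2 months as they were at 1 month.

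Gm35082 and Gm8797, like Serpina3n and Rbp4, were also higher in the other barcodes of the knockout library. Gm35082, an unnamed gene at chr7:100675088-100677760 (GRCm38), had 0 UMIs in WT and 92 in knockout fibroblasts, at least 23.6-fold higher against a floor of 3 counts per library, and at least 12.3-fold higher at 2 months (0 and 55). In all other barcodes it stood at 0.245 and 56.7 CPM. Gm8797 held 30 and 315 UMIs (2.99), and other barcodes held 7.98 and 137 CPM. At 2 months Gm8797 held 3 and 6 UMIs in fibroblasts, and 4.65 and 4.07 CPM in other barcodes, so the difference was not seen there. Ggt5 (2.41), Abca8b (2.28) and Hmcn2 (2.22) completed the 12, and Abca8b, a membrane transporter, stood at 1.84 at 2 months. Without cluster 4 the 1-month ratio was 1.31 for Abca8b, 1.11 for Hmcn2, 0.94 for Pthlh and 2.53 for Sfrp4.

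Among the 12 largest lower genes, Trim12a and Pttg1 were also lower in other barcodes at 1 month. So were Nr4a2 (36.0 and 19.6 CPM), Alkal2 (4.91 and 2.04), Rab27b (4.42 and 1.15), Avpr1a, Sox11 and B430010I23Rik. Acta2, Sh3yl1, Uty and Chrdl1 were not. Trim12a, a tripartite motif gene on the minus strand of chr7:104299894-104315466 (GRCm38), held 119 UMIs (53.2 CPM) in 87 WT fibroblasts and 6 (2.06 CPM) in knockout fibroblasts, a ratio of −4.58 (−6.16 to −3.52). At 2 months it held 33 and 1 UMIs (−5.06), and other barcodes at 1 month held 88.6 and 1.02 CPM. Pttg1 (securin, which holds sister chromatids together), on the minus strand of chr11:43420250-43426251, held 204 UMIs in 134 WT and 17 in 14 knockout fibroblasts (−3.93) and 91 and 4 at 2 months (−4.93). Other barcodes held 60.9 and 19.0 CPM of Pttg1 at 1 month. Both genes were near absent from knockout fibroblasts at each age and were lower in clusters 0, 1 and 2 alike.

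A pair of transcription factors and a ligand were lower at 1 month in many cells. Nr4a2, an immediate early nuclear receptor, held 315 UMIs (141 CPM) in 77 WT and 60 (20.6 CPM) in 31 knockout fibroblasts, a ratio of −2.76 (−3.19 to −2.37). Sox11, a transcription factor of progenitor cells, held 230 UMIs in 87 WT and 58 in 40 knockout fibroblasts (−2.36). Alkal2, a ligand of the ALK receptor, held 783 UMIs in 168 WT and 257 in 123 knockout fibroblasts (−1.98), and stood at −0.06 at 2 months. Nr4a2 and Sox11 had too few UMIs at 2 months for a ratio, and neither they nor Alkal2 were shown to be lower there. Avpr1a, a vasopressin receptor, held 81 and 14 UMIs (−2.87). Sh3yl1 (−2.01), B430010I23Rik (−1.90), the Y-linked Uty (−1.86), the BMP inhibitor Chrdl1 (−1.79) and Rab27b (−1.73) were the others beside Acta2.

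**Figure D3:**
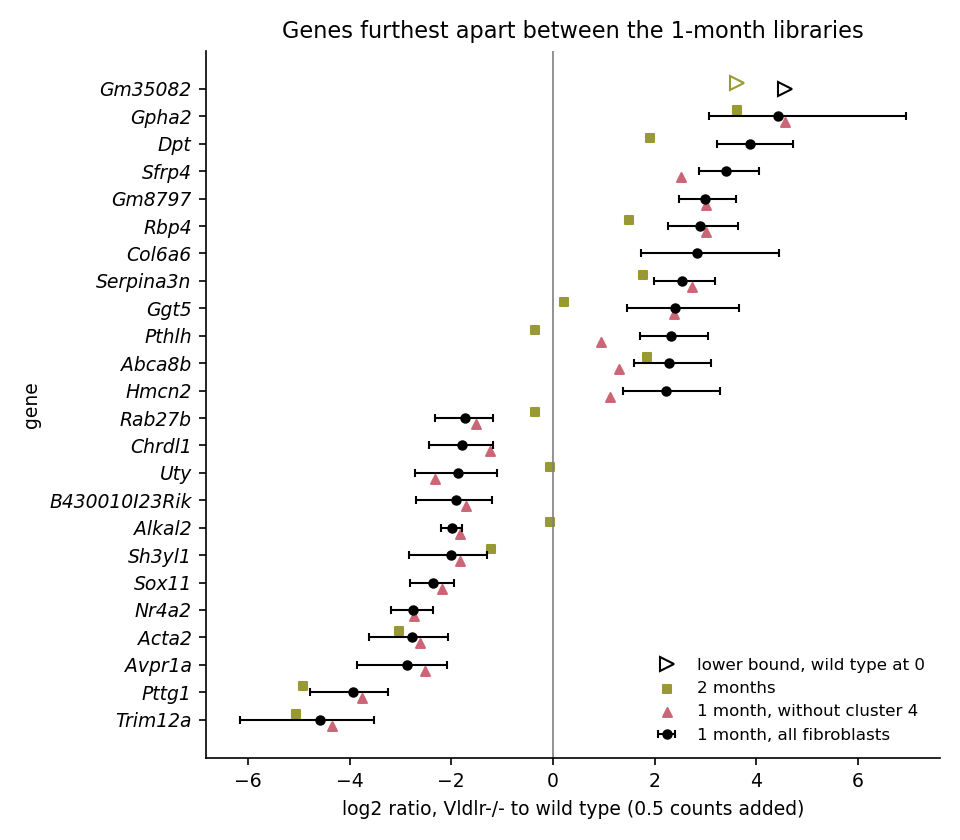
Log2 ratio of knockout over wild-type fibroblasts (x axis, 0.5 counts added) for the 12 genes with the largest ratio in each direction at 1 month. Black circles are all fibroblasts at 1 month with exact 95% intervals for counting error, filled triangles the same without cluster 4, squares the 2-month pair, and open triangles lower bounds where the WT library had 0 UMIs. Serpina3n stands at 2.54 at 1 month and 1.78 at 2 months, Trim12a at −4.58 and −5.06, and Pthlh at 2.33 and −0.36.

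Fibrillar collagens showed no common direction over all fibroblasts, and most were lower in the knockout within clusters 0, 1, 2 and 5 but not within clusters 3 and 4. Of 10 measured genes 6 were higher, where 54.9% of all genes were, with a median of 0.08 beside 0.04 for all genes. Col3a1 and Col1a1, both in the rule, stood at 0.30 and 0.12. Outside the rule, Col5a1 stood at 0.67 (339 and 703 UMIs), Col5a3 at 0.79 (72 and 162), Col11a1 at −0.48 (971 and 903), Col27a1 at −0.88 (202 and 143) and Col11a2 at −1.35 (22 and 11). Types V and XI are minor collagens that set the width of collagen I fibrils.

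Within clusters the list was lower in 7 of 7 measured genes in cluster 0 (median −0.37), 7 of 8 in cluster 1 (−0.30), 7 of 7 in cluster 2 (−0.21) and 6 of 6 in cluster 5 (−0.45). The share of all genes below 0 was 45% in cluster 0, 43.4% in cluster 1, 42.9% in cluster 2 and 50.2% in cluster 5. In cluster 4 the list had 4 of 7 genes above 0 (median 0.06), where 51% of all genes were above 0. In cluster 3, of few UMIs, 3 of 6 were above 0 (median −0.11), where 50.5% of all genes were; Col3a1 stood there at 0.38 (0.03 to 0.74) and Col1a1 at 0.04. Col1a1 levels followed the cluster: 32300 CPM in WT and 30703 in knockout cells of cluster 5, 7662 and 9206 in cluster 4, and 1891 and 1631 in cluster 2. Knockout fibroblasts were lower in cluster 2 and higher in cluster 4, which was also the cluster with the larger knockout share.

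Leaving out cluster 4 put the median of the fibrillar list at −0.31, with Col5a1 at −0.20, Col5a2 at −0.51, Col11a1 at −0.42 and Col27a1 at −0.71. Holding the mix of clusters equal gave −0.25, and leaving out cluster 5 gave 0.29. The sign of the list's median thus depended on which clusters were counted. In Xist-positive fibroblasts the median was 0.34 and in Y-positive fibroblasts −0.12.

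**Figure D4:**
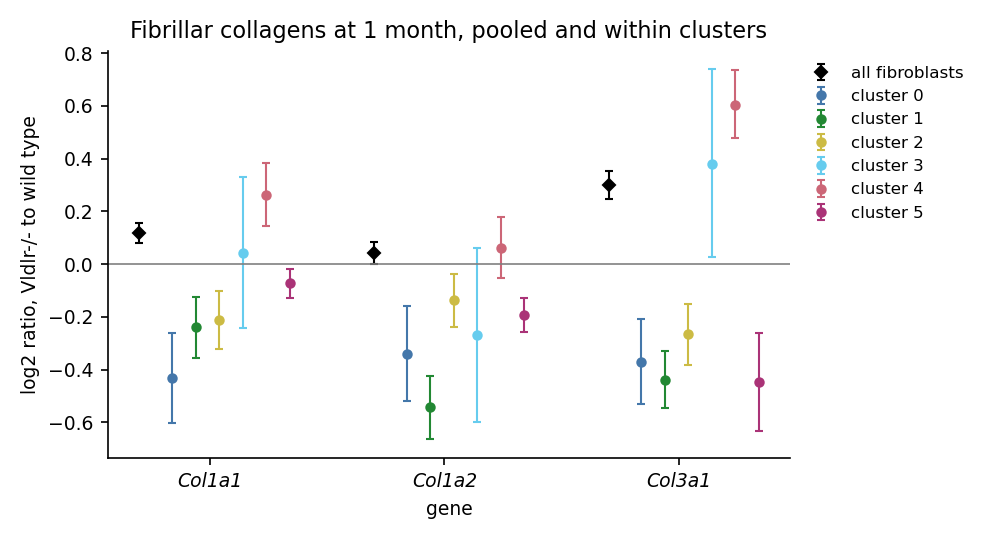
Log2 ratio of knockout over wild-type fibroblasts at 1 month (y axis) for the collagen genes Col1a1, Col1a2 and Col3a1 (x axis), over all fibroblasts (diamonds) and within clusters 0 to 5 (circles); lines are exact 95% intervals for counting error. Col1a1 stands at 0.12 over all fibroblasts and at −0.43, −0.24, −0.21, 0.04, 0.26 and −0.07 within clusters 0 to 5.

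Dcn (decorin, a small proteoglycan that binds collagen fibrils and TGF-beta) is a marker of the rule and lay above 0 in each of clusters 0 to 5. It held 15990 UMIs (7152 CPM) in WT and 33380 (11479 CPM) in knockout fibroblasts, a ratio of 0.68, and 0.43 at 2 months. Within clusters 0 to 5 the ratio of Dcn was 0.70, 0.75, 0.74, 0.37, 0.53 and 0.30. Lum (lumican), also in the rule, stood at 0.21 over all fibroblasts and at 0.43, 0.23, −0.04, 0.27, 0.31 and 0.22 within those clusters. Of 13 measured small proteoglycan genes 10 were higher (54.9% of all genes were), with a median of 0.21. That median was below 0 under 4 other settings, at −0.23 without cells carrying 2 or more markers of another type, −0.15 after thinning, −0.17 without the 10% of cells with most UMIs and −0.14 with cells weighted alike. Aspn (asporin), 213 and 1028 UMIs, stood at 1.89 and at 0.63 at 2 months; within cluster 4 it held 92 and 809 UMIs (0.93) and within cluster 2 18 and 110 (2.55). Kera stood at 1.13 from 3 and 8 cells.

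Of 22 other collagens 14 were higher (median 0.29), where 54.9% of all genes were. Their median was, however, −0.043 after thinning and −0.034 with cells weighted alike. The fibril-associated Col14a1 held 540 and 1196 UMIs, 0.77 at 1 month and 0.80 at 2 months. Col6a5 (−1.03), Col10a1 (−0.97) and Col8a1 (−0.77) were lower at 1 month, and Col8a1 stood at −0.21 at 2 months. Of 25 genes that fold, process or crosslink collagen 17 were higher, beside 54.9% of all genes, with a median of 0.08. P4ha3, a prolyl hydroxylase subunit, was the member at least 2-fold apart (5 and 34 UMIs, 2.27). Sparc (osteonectin) stood at 0.43; it was lower in clusters 0, 1 and 2 (−0.64, −0.43 and −0.40) and higher in clusters 4 and 5 (0.77 and 0.55).

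Elastic fibre genes were higher in 9 of 17 (median 0.18), where 54.9% of all genes were. Emilin2 and Ltbp1 (55 and 180 UMIs, 1.32) were at least 2-fold higher. Ltbp1, which anchors latent TGF-beta, stood at −0.55 at 2 months. Of 31 matricellular and adhesive genes 21 were higher, beside 54.9% of all genes, and the median was 0.34. At least 2-fold higher were 4 of them and at least 2-fold lower 3, beside 1.94% and 1.51% of all genes. Fn1 (fibronectin) held 163 UMIs in WT and 629 in knockout, a ratio of 1.57, and −0.04 at 2 months. Its knockout UMIs were in cluster 4 for the most part: that cluster held 27 in WT and 434 in knockout (1.79), cluster 5 held 119 and 158 (0.01), and without cluster 4 the ratio was 0.30. Vcan (versican) stood at 1.49, Spp1 (osteopontin) at 1.04, Ccn3 at 1.98, Ccn1 at −1.11, Comp at −1.06 and Ccn4 at −1.05. Matrix proteases and inhibitors had 15 of 26 genes higher (median 0.12), beside 54.9% of all genes. The serine protease Htra3 stood at 1.46 (124 and 445 UMIs) and the metalloprotease inhibitor Timp3 at −0.65 (7799 and 6457).

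Most contractile genes lay below 0 in both pairs. Of 24 measured genes 16 were below 0 at 1 month, 4 of them at least 2-fold, and the median was −0.17. Of all genes 45.1% were below 0 at that age and 1.51% were at least 2-fold lower. At 2 months 20 of 23 contractile genes were below 0, 8 at least 2-fold, and the median was −0.61. There 50.3% of all genes were below 0 and 1.45% were at least 2-fold lower. Myl9, a myosin regulatory light chain, held 505 UMIs (226 CPM) in 168 WT and 253 (87.0 CPM) in 151 knockout fibroblasts, a ratio of −1.38, and 188 and 118 UMIs at 2 months (−1.25). Its ratio was −1.02 in cluster 0, −1.36 in cluster 1 and −1.62 in cluster 2. In cluster 4 the list went the other way, with 8 of 12 genes above 0 (median 0.35), where 51% of all genes were above 0. Tpm2 (beta-tropomyosin) held 428 UMIs in 150 WT and 267 in 152 knockout fibroblasts (−1.06) and 291 and 210 at 2 months (−1.05). Myl9 and Tpm2 were spread over many cells of both libraries and were lower in the knockout in each pair.

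Acta2 and Tagln came from few cells. Acta2 held 97 UMIs (43.4 CPM) in 15 WT and 18 (6.19 CPM) in 10 knockout fibroblasts, a ratio of −2.78 (−3.62 to −2.07), and 1 WT cell held 43. At 2 months it held 106 UMIs in 12 WT and 19 in 5 knockout fibroblasts (−3.03), and 1 WT cell held 57. Tagln (transgelin) held 101 UMIs in 21 WT and 49 in 9 knockout fibroblasts (−1.42) and 309 and 16 at 2 months (−4.81). At 1 month 1 knockout cell held 34 of the 49. In Y-positive fibroblasts alone Tagln stood at 0.73 at 1 month, the other way round. Flna (filamin) stood at −0.73 and −0.59 at the 2 ages and Tpm1 at −0.66 and −1.42.

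Mural cell markers lay the same way at 1 month: 7 of 7 measured were lower in the knockout, Acta2 among them, beside 45.1% of all genes. Their median was −0.34 and their summed levels were 1101 and 826 CPM. Pdgfrb alone held 484 and 389 CPM of these sums, and Abcc9 held 192 and 172 CPM. At 2 months 4 of 7 mural markers were lower (median −0.18), beside 50.3% of all genes, with sums of 1064 and 858 CPM. At least 4 of the 10 markers were carried by 62 WT (19.9%) and 37 knockout fibroblasts (8.26%). The fibroblast rule had already removed 15 WT and 16 knockout barcodes at 1 month for their mural markers. The mural levels and counts given here therefore cover only cells below that limit. Rgs5, the pericyte gene, held 404 and 287 UMIs (−0.87) at 1 month, while Myh11, Cnn1 and Higd1b were at 0 in both 1-month libraries. Myh11 and Cnn1 define smooth muscle. At 2 months Myh11 held 28 UMIs in WT and 1 in knockout fibroblasts, and Cnn1 held 5 and 1. The part of mural cell RNA in the lower contractile genes was not tested.

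Immediate early genes were lower in knockout fibroblasts at 1 month. Of 33 measured genes 29 were below 0, 8 at least 2-fold, and the median was −0.57. Of all genes 45.1% were below 0 and 1.51% were at least 2-fold lower. The list summed to 25529 CPM in WT and 17187 in knockout fibroblasts. In other barcodes it was also lower in the knockout, at 9076 and 7291 CPM. Fosb, a subunit of the AP-1 transcription factor, held 2451 UMIs in WT and 1134 in knockout fibroblasts, a ratio of −1.49. Egr2 (106 and 48 UMIs, −1.51), Nr4a3 (58 and 26, −1.52), Gadd45b (639 and 352, −1.24), Atf3 (153 and 88, −1.17), Egr3 (−1.11) and Btg2 (3101 and 1944, −1.05) were the others at least 2-fold lower beside Nr4a2. The most abundant members differed less: Fos held 7641 and 6032 UMIs (−0.72) and Egr1 7055 and 6295 (−0.54). Gadd45g (423 and 783, 0.51) and Dusp2 (17 and 41, 0.87) went the other way.

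The 2-month pair did not show this. There 17 of 28 measured genes were above 0, 4 at least 2-fold, with a median of 0.27. The sums were 4079 CPM in WT and 4094 in knockout. Of all genes 49.7% were above 0 and 3.01% were at least 2-fold higher. Fosb stood at 1.25 (51 and 182 UMIs), Fos at 1.73 (93 and 462) and Nr4a1 at −0.97 at 1 month and 1.24 at 2 months. Summed levels in either 2-month library were lower than in both 1-month libraries, but age and software version separate these pairs in the same way and cannot be told apart.

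Within the 1-month libraries most genes of the list lay below 0 in each of clusters 0 to 5. In cluster 2, 28 of 29 genes were lower (median −0.70), in cluster 1 25 of 31 (−0.48) and in cluster 0 19 of 28 (−0.24). In cluster 5, 13 of 16 were lower (−0.58), in cluster 3 14 of 21 (−0.16) and in cluster 4 11 of 16 (−0.16). The share of all genes below 0 was 42.9% in cluster 2, 43.4% in cluster 1, 45% in cluster 0 and 50.2% in cluster 5. In clusters 3 and 4, 50.5% and 51% of all genes lay above 0. Fosb stood at −1.12 in cluster 0, −1.46 in cluster 1, −1.48 in cluster 2 and −1.05 in cluster 3. In cluster 4 it stood at 0.29 (−0.53 to 1.31), from 13 and 75 UMIs. Nr4a2 held 104 WT and 5 knockout UMIs in cluster 2. The list's median was −0.56 in Xist-positive and −0.71 in Y-positive fibroblasts. It was −0.25 without the fibroblasts that carried 2 or more markers of another cell type, which left 148 WT and 290 knockout cells. Heat shock genes, which digestion can also induce, were lower in 14 of 16 at 1 month (median −0.10) and in 12 of 16 at 2 months (−0.37). Of all genes 45.1% and 50.3% were below 0 at these ages. Dnajb1 stood at −1.67 (283 and 115 UMIs) at 1 month and 0.17 at 2 months. Whether handling differed between the samples is not recorded in the labels, and its part was not tested.

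**Figure D5:**
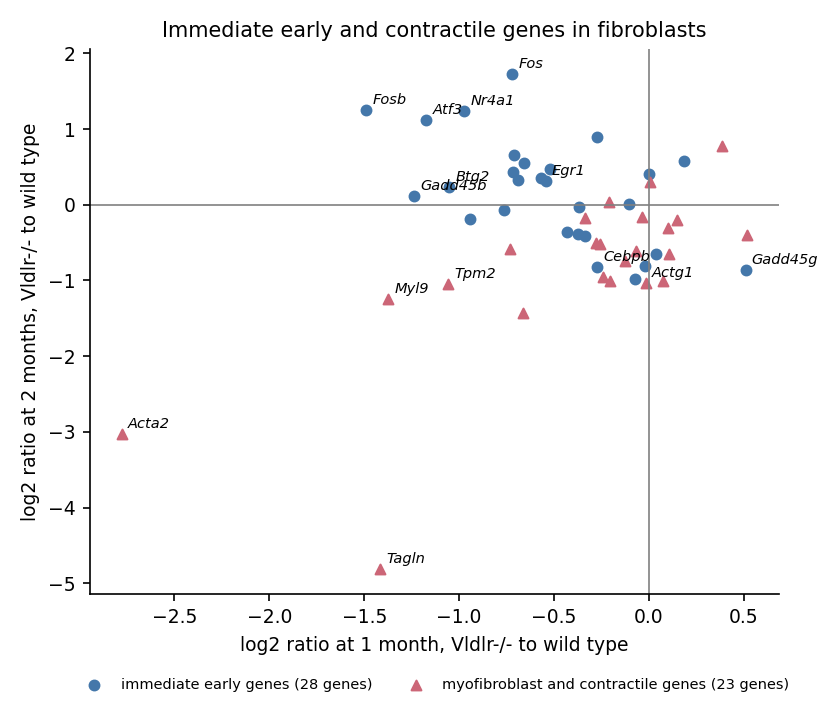
Log2 ratio of knockout over wild-type fibroblasts at 1 month (x axis) and at 2 months (y axis), 1 point per gene measured at both ages, circles for 28 immediate early genes and triangles for 23 contractile genes. Fosb lies at −1.49 and 1.25, Myl9 at −1.38 and −1.25, and Acta2 at −2.78 and −3.03.

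Serum response factor drives both contractile and immediate early genes through the CArG box, so the promoters of both lists were searched for that motif in the 250 bases before the start of transcription, on both strands. Promoters were from RefSeq (GRCm38.p6) and matched 21 of 27 contractile genes, 27 of 35 immediate early genes and 7 of 10 adventitial genes. A CArG box lay in 4 of the 21 contractile promoters (19.0%), in 2 of the 27 immediate early promoters (7.41%) and in none of the 7 adventitial promoters, against 439 of 27025 promoters of all genes (1.62%). The cyclic AMP response element TGACGTCA lay in 3 immediate early promoters (11.1%: Btg2, Dusp1 and Maff), in no contractile promoter and in 1.77% of all promoters. A match describes the sequence and is not a bound site. The stretches around the 6 CArG boxes are shown because these genes lie in the contractile and immediate early lists, which were among those lower at 1 month. Capitals mark the CArG box, and letters run 5′ to 3′ on the gene's strand.
Myl9 (chr2:156775273-156775342, + strand, box 161 bases before the start): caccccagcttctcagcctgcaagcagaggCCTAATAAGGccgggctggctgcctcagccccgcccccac
Vcl (chr14:20929148-20929210, + strand, box 227 bases before the start): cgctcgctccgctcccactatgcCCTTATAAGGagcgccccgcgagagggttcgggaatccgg
Cnn2 (chr10:79988514-79988583, + strand, box 56 bases before the start): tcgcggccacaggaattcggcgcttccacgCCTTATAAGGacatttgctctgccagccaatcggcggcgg
Actg1 (chr11:120348546-120348615, − strand, box 90 bases before the start): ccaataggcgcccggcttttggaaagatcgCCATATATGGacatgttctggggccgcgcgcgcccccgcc
Egr2 (chr10:67537464-67537533, + strand, box 72 bases before the start): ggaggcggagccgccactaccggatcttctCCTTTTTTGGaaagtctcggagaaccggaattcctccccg
Zfp36 (chr7:28379247-28379316, − strand, box 58 bases before the start): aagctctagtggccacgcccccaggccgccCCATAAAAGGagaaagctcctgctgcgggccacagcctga

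These 6 genes did not share a size of difference. Myl9 (−1.38) and Egr2 (−1.51) were at least 2-fold lower at 1 month. Zfp36, which destabilises cytokine messages, stood at −0.76, and the focal adhesion gene Vcl at −0.24 and at −0.96 at 2 months. Cnn2, a calponin, stood at 0.07 and the cytoplasmic actin Actg1 at −0.02 at 1 month, and at −1.0 and −1.03 at 2 months.

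Among growth factor pathways the TGF-beta and BMP median lay near that of all genes (0.04), the Wnt median below it and the IGF median above it. Single members stood apart. TGF-beta and BMP genes were higher in 16 of 28 (median 0.07), where 54.9% of all genes were. The ligands Bmp4 (51 and 119 UMIs, 0.84, and 1.46 at 2 months) and Bmp6 (8 and 26, 1.26) were higher, and Id1, a target of BMP signalling, held 1066 and 589 UMIs (−1.23) and stood at −0.48 at 2 months. Its relatives Id2 and Id3 stood at −0.81 and −0.58, and the inhibitor Smad7 at −0.70. Wnt pathway genes were lower in 14 of 23 (median −0.25), where 45.1% of all genes were. Among the lower ones were the ligand Wnt6 (−1.54), the target Axin2 (−0.99) and the enhancers Rspo2 (−0.93) and Rspo3 (−0.77). Of the IGF axis and growth factors 20 of 33 were higher (median 0.15), where 54.9% of all genes were. Igf1 held 502 and 1275 UMIs, a ratio of 0.96, and 70 and 255 at 2 months (1.28). Vegfa, the endothelial growth factor, held 328 and 257 UMIs (−0.73).

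Chemokine and complement genes showed no common direction at 1 month, while most interferon and antigen presentation genes were lower. Chemokines, cytokines and their receptors were higher in 10 of 20 (median 0.01). The scavenging chemokine receptor Ackr3 held 24 and 97 UMIs (1.61) and stood at 0.99 at 2 months. Ccl5 held 115 and 723 UMIs (2.27), but 1 knockout cell held 651 of them. Complement genes were higher in 7 of 13 (median 0.06) at 1 month and in 12 of 14 (0.37) at 2 months, beside 54.9% and 49.7% of all genes. Macrophage and myeloid markers were also higher in the knockout at 2 months (81.3 and 752 CPM), and their part in the complement genes was not tested. C3 stood at −1.23 at 1 month, where 1 WT cell held 41 of 49 UMIs, and Clu (clusterin) at 1.14. Antigen presentation and interferon genes were lower in 32 of 43 (median −0.25) at 1 month and in 23 of 39 (−0.12) at 2 months. Of all genes 45.1% and 50.3% were lower at these ages. The interferon-induced Rsad2 (28 and 4 UMIs, −3.04), Ifit3 (398 and 225, −1.20) and Ifi27l2a (1055 and 666, −1.04) were at least 2-fold lower at 1 month.

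Vldlr itself held few UMIs in fibroblasts (15 in WT and 13 in knockout), and a link of lipid genes to the missing receptor was not tested. Of 21 measured genes of lipid uptake 14 were higher at 1 month (median 0.16), where 54.9% of all genes were. Lpl, lipoprotein lipase, held 16 and 52 UMIs (1.29). Apod, a lipid carrier, held 1734 UMIs (776 CPM) in WT and 5257 (1808 CPM) in knockout fibroblasts, a ratio of 1.22, and 0.36 at 2 months. Apoe, a ligand of lipoprotein receptors, held 4385 and 2812 UMIs (−1.02) at 1 month and was the other way round at 2 months, with 2442 and 6154 (0.75). Macrophage and myeloid markers were also higher in knockout fibroblasts at 2 months (81.3 and 752 CPM), and their part in Apoe was not tested. Sterol and fatty acid synthesis genes were higher in 20 of 30 (median 0.17), beside 54.9% of all genes, with Sqle (squalene epoxidase, 8 and 28 UMIs) at 1.37. Glycolysis genes were higher in 15 of 18 (0.15) at 1 month and 5 of 18 (−0.10) at 2 months, beside 54.9% and 49.7% of all genes. No glycolysis gene was 2-fold apart. All 13 mitochondrially encoded genes were lower at 1 month (median −0.16), beside 45.1% of all genes. At 2 months 2 of 13 were higher (−0.23), beside 49.7% of all genes.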

How the data were processed

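The deposited values were raw UMI counts per gene and barcode, not normalized by the authors; the file headers name Cell Ranger 6.0.2 at 1 month and 7.0.1 at 2 months. Per the submitters' processing notes, Cell Ranger 3.0, Seurat 4.0 and the mm9 build were used. No header or label used here says whether intron reads entered the counts. Of 32285 gene identifiers, 32158 were found in GENCODE M21 (GRCm38), which gave the gene coordinates. Total UMIs per library were 11194301 (WT) and 12022513 (Vldlr-/-) at 1 month and 23070271 and 16292472 at 2 months. One barcode sequence was shared between the Vldlr-/- libraries and none among fibroblasts.

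Counts were summed over the fibroblasts of each library, and ratios and exact intervals were computed with Python 3.11.15, numpy 2.4.6, scipy 1.17.1 and pandas 2.3.3 and tested on simulated data. A gene needed 30 UMIs over a pair; 0.5 counts were added. Fibroblasts were clustered with scanpy 1.11.5 and leidenalg 0.10.2 (1500 variable genes, 20 components, 15 neighbours, resolution 0.6), leaving out the 379 genes at least 2-fold apart. Named genes were the rule's markers, Vldlr and sex-linked genes, the 10 with most UMIs, the 12 highest against other barcodes, per direction the 12 largest ratios (at least 60 UMIs, interval excluding no difference, and a level at least 0.5 of that in other barcodes), the largest ratios of each list, and cluster leaders; others, such as genes apart at both ages or held by 1 cell, were chosen after their values were seen. The members and the 50 gene lists were chosen with earlier results of these data known. Alternatives covered barcode and marker filters, UMI minimum, scaling, thinning, weighting, sex and removal of clusters.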

Additional observations from a re-analysis of the deposited data

Results flagged for a closer look

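Of the named and listed genes, 4 were at least 2-fold apart in opposite directions in the 1-month and 2-month pairs of fibroblasts, with counting intervals that excluded 0 at both ages. The difference between the ages was not tested, because each group was 1 library, and age went with software version. Fosb stood at −1.49 at 1 month and 1.25 at 2 months. The metallothioneins, which bind zinc and copper, were higher in the knockout at 1 month and lower at 2 months: Mt1 stood at 1.47 (211 and 764 UMIs) and −1.51 (1516 and 794), and Mt2 at 1.70 (42 and 179) and −2.53 (583 and 151). Ccn3, a matricellular protein that also led cluster 4, stood at 1.98 (14 and 74 UMIs) and −1.52 (60 and 31).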

How the results depend on the processing

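With 1 library per group, agreement across settings covers processing only. Of the results that answer a comparison, 99 values under other settings stayed near the reported one and 12 moved. The count of at least 2-fold higher genes was 56 with a minimum of 100 UMIs and 523 with 10; that of lower genes was 58 and 390, 85 after thinning to 2000 UMIs and 257 with each cell weighted alike. Median-of-ratios scaling gave 202 higher and 185 lower. The immediate early median was −0.25 without cells carrying 2 or more markers of another type. WT fibroblast shares were 17.1% with at least 6 markers and 9.55% without those cells; knockout shares were 22.1% and 15.9%, and 28.3% with at least 1000 genes. Sign changes were seen for other collagens (−0.043 thinned, −0.034 weighted alike), small proteoglycans (−0.23 without those cells, −0.15 thinned, −0.17 without the top 10% by UMIs, −0.14 weighted alike), corneal keratocyte genes in Y-positive cells (−0.20), perineurial genes in Xist-positive cells (−0.12) and Tagln in Y-positive cells (0.73). The cause of these changes was not tested. Leaving out clusters and holding their mix equal were chosen after seeing the data. No paired analysis was possible because each group is 1 library and the labels give no replicate number; the number 1 only names each sample.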

Other observations

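Retinoid genes as a group did not stand apart, with 8 of 17 higher, beside 54.9% of all genes, and a median of −0.06. However, 4 members lay well above that median at 1 month. Rarb, a retinoic acid receptor, held 100 WT and 257 knockout UMIs (0.98) and stood at −0.09 at 2 months. Dhrs3, which reduces retinaldehyde, held 131 and 305 UMIs (0.84) and stood at −0.04. Rbp4 and Apod were the other members, and Rbp4 was the member at least 2-fold higher at both ages.

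Subset lists other than the adventitial one gave smaller medians: −0.16 for tendon and sclera genes (5 of 11 higher), 0.30 for corneal keratocyte genes (−0.20 in Y-positive cells), 0.39 for perineurial and endoneurial genes (−0.12 in Xist-positive cells), 0.18 for meningeal sheath genes and 0.05 for genes of Col15a1 parenchymal fibroblasts. Lepr, the leptin receptor, held 68 and 180 UMIs (1.02) and Osr2, a transcription factor, 6 and 43 (2.36). Cytosolic ribosomal protein genes were higher in 67 of 77 over all fibroblasts, beside 54.9% of all genes, with a median of 0.06. The direction of these genes differed by cluster. They were higher in 26 of 77 in cluster 0, 0 of 77 in cluster 1 (median −0.25) and 14 of 77 in cluster 2. In cluster 4 they were higher in 77 of 77 and in cluster 5 in 75 of 77 (0.64 in each). All genes lay below 0 in 45%, 43.4%, 42.9% and 50.2% of cases in clusters 0, 1, 2 and 5, and above 0 in 51% in cluster 4.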
